A study of Homo sapiens with 34 samples.

Results

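The hexosamine pathway was followed through 9 of its genes, *GFPT1*, *GNPNAT1*, *PGM3*, *UAP1*, *OGT*, *MGEA5* (the symbol used in the tables for *OGA*), *RENBP*, *NAGK* and *AMDHD2*. They were chosen by name, and all 9 were among the 13307 genes that had a level in every comparison, of 17587 genes listed in any. *GFPT1* and *RENBP* had been singled out with these same comparisons in view, so their values are a description and carry no test. The RNA-seq came from 3 human B-ALL lines that carry different fusion genes, BCR-ABL in BV-173, MLL-AF4 in RS4;11 and ETV6-PDGFRB in NALM-6. Each line was transduced with a lentiviral vector carrying an shRNA against *CCND3* or a scrambled shRNA, and the RFP-positive cells were collected on day 4. In a separate experiment each line received 1 µM palbociclib, an inhibitor of the kinases CDK4 and CDK6, or its solvent DMSO for 3 days. The groups held 3 samples each, apart from the *CCND3* shRNA group of NALM-6 and the DMSO group of BV-173 with 2, which makes 34 samples in 12 groups. A single shRNA sequence was used, all cells are established lines grown in culture, and the transduced groups had been sorted, which is not described for the drug groups. The authors deposited 1 level per group, normalised within each pair of groups. Sequencing depth and the variation among replicates cannot be seen from these levels, no SD is given for a group level, and the 3 lines served as the replicates of each treatment.

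The pathway turns fructose-6-phosphate, glutamine, acetyl-CoA and UTP into UDP-GlcNAc, the sugar donor for N-glycans, GPI anchors, proteoglycans and the O-GlcNAc mark on nuclear and cytosolic proteins. GFPT1 carries out the first and rate-limiting step, GNPNAT1 acetylates its product, PGM3 moves the phosphate and UAP1 joins the sugar to UTP. OGT then attaches O-GlcNAc to proteins and OGA, the product of *MGEA5*, removes it. NAGK, AMDHD2 and RENBP handle the sugar that is recovered or turned over. NAGK phosphorylates free GlcNAc, AMDHD2 takes the acetyl group off GlcNAc-6-phosphate and so runs against GNPNAT1, and RENBP interconverts GlcNAc and N-acetylmannosamine, the sugar from which sialic acid is made. XBP1, a transcription factor of the unfolded protein response, is known to activate genes of hexosamine synthesis.

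The start regions of the 4 synthesis enzymes are shown because each of them holds the same 7 letters, CCACGTC, and that of *AMDHD2* is shown for comparison. The sequences are from RefSeq (GRCh38.p14) and run 5′ to 3′ on the strand of the gene, from 250 bases before to 50 bases after a transcription start site. Capitals mark CCACGTC, read on either strand, in the synthesis enzymes and CACGTG, the E-box bound by MYC and related factors, in *AMDHD2*. The windows lie at chr2:69387178-69387477 (minus strand) for *GFPT1*, at chr14:52791558-52791857 (minus strand) for *GNPNAT1*, at chr6:83193216-83193515 (minus strand) for *PGM3*, at chr1:162561620-162561919 (plus strand) for *UAP1* and at chr16:2520121-2520420 (plus strand) for *AMDHD2*.
GFPT1: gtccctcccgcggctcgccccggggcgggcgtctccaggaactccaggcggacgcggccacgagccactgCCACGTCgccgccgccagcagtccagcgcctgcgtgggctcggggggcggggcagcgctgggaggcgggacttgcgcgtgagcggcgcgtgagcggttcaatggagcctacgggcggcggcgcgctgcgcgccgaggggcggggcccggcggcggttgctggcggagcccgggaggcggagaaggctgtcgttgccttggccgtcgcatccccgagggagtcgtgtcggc
GNPNAT1: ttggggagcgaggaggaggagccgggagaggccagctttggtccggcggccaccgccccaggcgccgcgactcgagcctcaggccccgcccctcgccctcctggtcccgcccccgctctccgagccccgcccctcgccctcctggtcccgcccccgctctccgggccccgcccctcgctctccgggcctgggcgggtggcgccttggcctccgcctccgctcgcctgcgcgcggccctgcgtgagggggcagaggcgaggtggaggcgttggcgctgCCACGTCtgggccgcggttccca
PGM3: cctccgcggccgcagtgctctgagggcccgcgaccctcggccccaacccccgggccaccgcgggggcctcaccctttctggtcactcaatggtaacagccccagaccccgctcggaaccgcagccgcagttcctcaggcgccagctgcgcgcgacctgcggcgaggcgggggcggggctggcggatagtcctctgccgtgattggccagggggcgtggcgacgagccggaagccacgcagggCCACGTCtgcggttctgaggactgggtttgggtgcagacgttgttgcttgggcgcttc
UAP1: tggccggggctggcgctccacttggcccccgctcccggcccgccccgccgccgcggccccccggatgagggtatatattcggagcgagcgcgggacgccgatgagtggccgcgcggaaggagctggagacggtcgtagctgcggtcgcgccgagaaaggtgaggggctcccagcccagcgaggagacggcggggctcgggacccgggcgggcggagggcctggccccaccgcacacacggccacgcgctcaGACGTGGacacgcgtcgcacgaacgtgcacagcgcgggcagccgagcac
AMDHD2: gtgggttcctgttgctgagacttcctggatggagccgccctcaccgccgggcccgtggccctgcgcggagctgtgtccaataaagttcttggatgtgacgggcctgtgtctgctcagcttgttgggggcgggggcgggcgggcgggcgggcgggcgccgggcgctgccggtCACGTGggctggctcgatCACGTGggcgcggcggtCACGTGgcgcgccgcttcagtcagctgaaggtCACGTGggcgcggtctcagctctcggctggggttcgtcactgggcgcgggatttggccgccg
The first base of the match lay 180 bases before the start site in *GFPT1* (offset -180), 8 bases before it in *PGM3* (offset -8), and 1 and 27 bases after it in *UAP1* and *GNPNAT1*. *PGM3* has 2 start regions in this set and *UAP1* has 3, and the match was in 1 of them in both cases. No window of *OGT*, *MGEA5*, *RENBP*, *NAGK* or *AMDHD2* held CCACGTC. Of the 10840 genes of the tables with such a window, 5.46% had at least 1 match on either strand, against 4 of the 9 hexosamine genes. *AMDHD2* carried CACGTG 4 times, at offsets -79, -61, -44 and -12, while 12.5% of genes had at least 1 copy and 4 genes (0.0369%) had 4 or more. The letters were picked after the sequences had been read, both motifs hold CACGT, and a match is a description of the sequence and not a bound site.

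The target of the shRNA was checked first. The *CCND3* level after transduction with the *CCND3* shRNA was 20.7% of the scrambled level in RS4;11, 24.2% in NALM-6 and 31.1% in BV-173. With palbociclib it was 81.8%, 78.0% and 76.0% of the DMSO level in the same order. The median log2 ratio of all genes lay between -0.01 and 0.06 in the 6 comparisons. All 10 B-lineage markers, among them *CD79A* and *PAX5*, were listed in each line, with control levels from 2.53 (in RS4;11) to 25143. T-lineage markers did not exceed a control level of 4.07 and erythroid markers did not exceed 0.820 where they were listed, while the highest myeloid marker reached 508 in RS4;11. The samples are bulk RNA, so a change in the share of cells and a change in RNA per cell cannot be told apart.

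*GFPT1* (chr2:69319780-69387227) showed the largest difference of the 9 genes after *CCND3* knockdown. Its level was 3119 with the scrambled and 735 with the *CCND3* shRNA in NALM-6, 2994 and 952 in RS4;11, and 1456 and 587 in BV-173. The knockdown level was thus lower in each line and amounted to 23.6%, 31.8% and 40.3% of the control. On the log2 scale the ratios were -2.09, -1.65 and -1.31, with a mean of -1.68 ± 0.39 (SD, n = 3 lines). Few genes lay further down, since 0.00649%, 1.11% and 0.0948% of all genes had a lower ratio (NALM-6, RS4;11, BV-173, the order of all such values unless another is named). Palbociclib gave a smaller and less even difference. The *GFPT1* level was 3279 with DMSO and 1207 with palbociclib in NALM-6, 2863 and 2282 in RS4;11, and 1436 and 1000.1 in BV-173. The treated level was below the control in all 3 lines, but the log2 ratio of -1.44 in NALM-6 stood apart from -0.33 in RS4;11 and -0.52 in BV-173. The mean was -0.76 ± 0.60 (SD, n = 3 lines), and 3.79%, 25.8% and 14.1% of all genes had a lower ratio. The scrambled and DMSO levels of *GFPT1* were close to each other although they come from tables normalised separately, with scrambled-to-DMSO ratios of 0.951, 1.05 and 1.01.

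**Figure D1:**
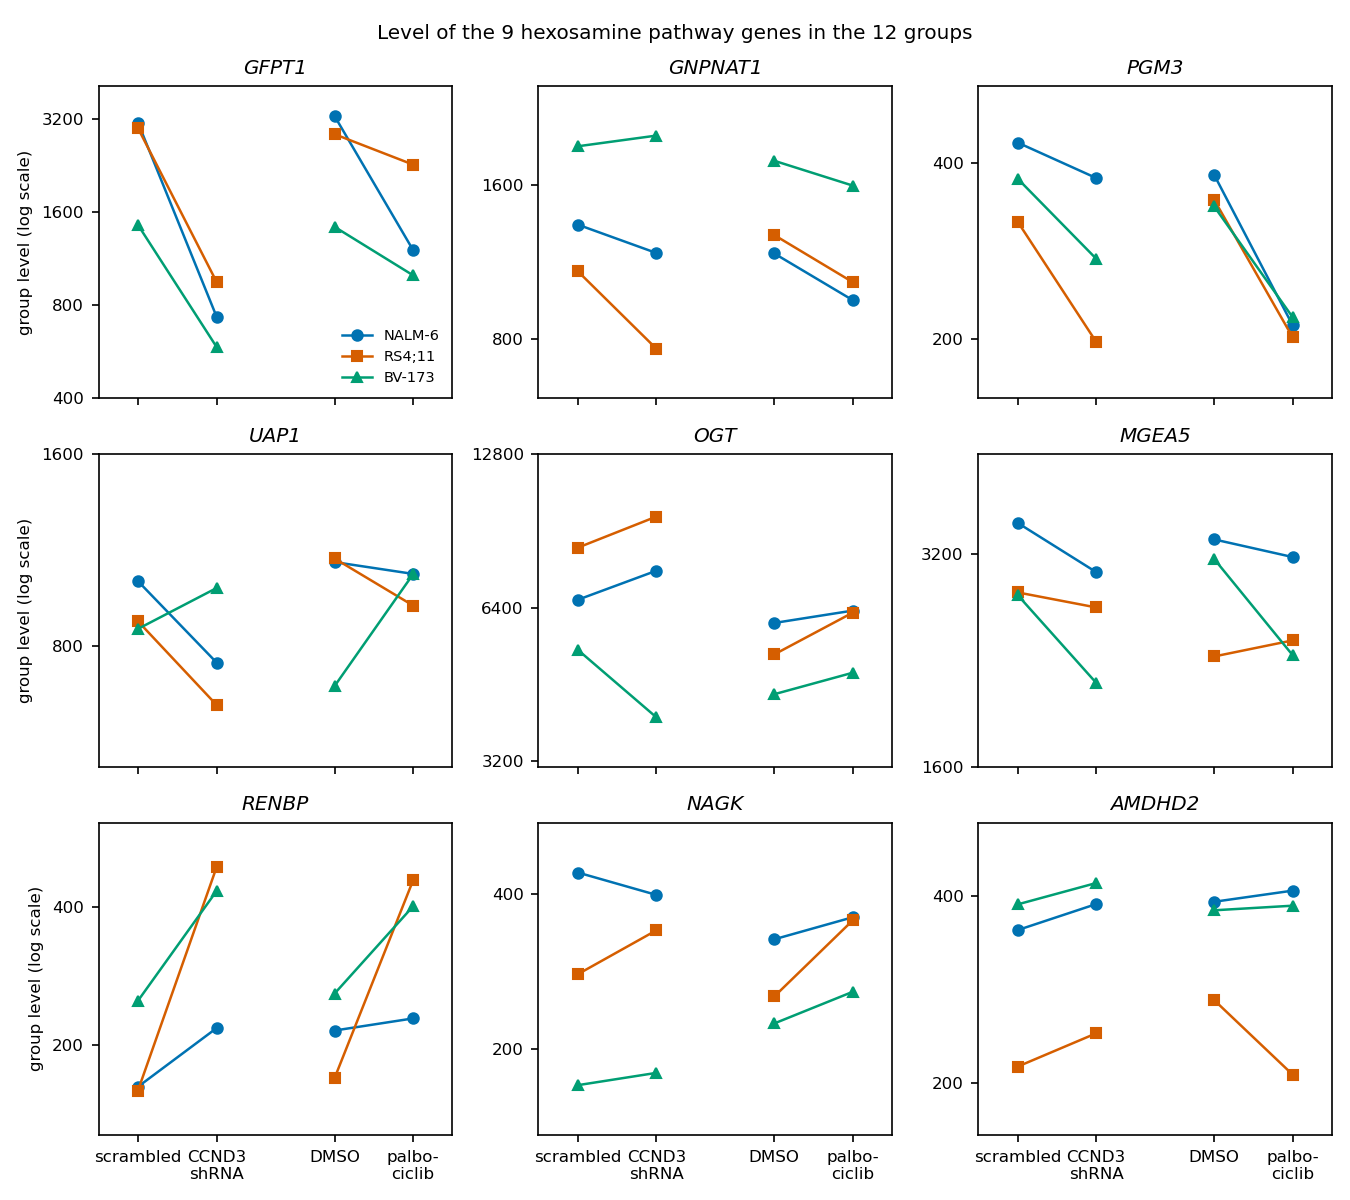
Group levels of the 9 genes on log axes (each panel has its own range), with lines joining a control to its treatment in NALM-6 (circles), RS4;11 (squares) and BV-173 (triangles). *GFPT1* is lower in each of the 6 pairs, from 3119 to 735 in NALM-6 after knockdown, and *RENBP* is higher in each, from 159 to 489 in RS4;11 after knockdown.

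*PGM3*, which encodes the mutase between GNPNAT1 and UAP1, fell with palbociclib in a way that was even across lines. Its level was 383 with DMSO and 211 with palbociclib in NALM-6, 347 and 201 in RS4;11, and 338 and 218 in BV-173. All treated levels lay below all DMSO levels (across tables normalised separately), at 55.1%, 58.0% and 64.5% of the control, and 8.83% to 10.7% of all genes had a lower ratio in the same comparison. The mean log2 ratio was -0.76 ± 0.12 (SD, n = 3 lines, 95% interval -1.14 to -0.37), with an adjusted p of 0.0573 (limma across all genes, Benjamini-Hochberg). The call rests on all 3 lines: leaving out NALM-6, RS4;11 or BV-173 gave -0.71, -0.75 and -0.82 with adjusted p of 0.170, 0.195 and 0.140 (limma). After *CCND3* knockdown the *PGM3* level was 434 and 378 in NALM-6, 318 and 198 in RS4;11, and 377 and 275 in BV-173 (scrambled and *CCND3* shRNA). These values gave log2 ratios of -0.20, -0.69 and -0.46 and a mean of -0.45 ± 0.24 (SD, n = 3 lines), lower in 3 of 3 lines but short of the threshold (limma adjusted p = 0.162, 95% interval -0.80 to -0.10). The transcript length given for *PGM3* varied from 4224 to 6107 bases between tables, while that of *GFPT1* was 8649 bases in all of them.

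*GNPNAT1* and *UAP1* did not pass the test under either treatment. The *GNPNAT1* level was 1338 and 1178 in NALM-6, 1085 and 765 in RS4;11, and 1904 and 1997 in BV-173 with the scrambled and the *CCND3* shRNA. BV-173 had the highest level of this acetyltransferase in each pair, and it alone had a knockdown ratio above 0 (0.07, against -0.18 and -0.50). With palbociclib the log2 ratios of *GNPNAT1* were -0.30, -0.31 and -0.16, with a mean of -0.26 ± 0.08 (SD, n = 3 lines) and a limma adjusted p of 0.297. *UAP1*, which completes UDP-GlcNAc, differed in direction between lines. Its level with the scrambled and the *CCND3* shRNA was 1011 and 753 in NALM-6, 875 and 646 in RS4;11, and 851 and 987 in BV-173. With DMSO and palbociclib it was 1084 and 1038 in NALM-6, 1098 and 926 in RS4;11, and 692 and 1037 in BV-173. NALM-6 and RS4;11 thus had lower *UAP1* levels under both treatments and BV-173 higher ones, and the mean log2 ratios of -0.22 ± 0.37 and 0.09 ± 0.44 (SD, n = 3 lines) had limma adjusted p of 0.520 and 0.801. The 95% intervals of the mean log2 ratio after knockdown were -0.58 to 0.17 for *GNPNAT1* and -0.64 to 0.21 for *UAP1*.

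Neither gene of the O-GlcNAc pair passed the test under either treatment. The *OGT* level was 6633 and 7564 in NALM-6, 8394 and 9661 in RS4;11, and 5291 and 3899 in BV-173 with the scrambled and the *CCND3* shRNA, lower in BV-173 and higher in the other lines. With DMSO and palbociclib it was 5973 and 6317, 5182 and 6261, and 4329 and 4771, higher with the drug in each line by a log2 ratio of 0.08 to 0.27. The mean log2 ratios of *OGT* were -0.02 ± 0.37 after knockdown and 0.16 ± 0.10 with palbociclib (SD, n = 3 lines), with limma adjusted p of 0.967 and 0.486. The scrambled and DMSO groups of RS4;11 differed more in *OGT* than they did under either treatment, with a ratio of 1.62 between tables that were normalised separately. *MGEA5*, the gene of the enzyme that removes O-GlcNAc, had levels of 3542 and 3017 in NALM-6, 2823 and 2688 in RS4;11, and 2800.2 and 2103 in BV-173 with the scrambled and the *CCND3* shRNA. All 3 knockdown levels were below their controls, with a mean log2 ratio of -0.24 ± 0.17 (SD, n = 3 lines) and a limma adjusted p of 0.351. With palbociclib the *MGEA5* ratios were -0.08, 0.08 and -0.45, with a limma adjusted p of 0.586. HCFC1, a chromatin factor that OGT binds and cleaves, is encoded next to *RENBP*. *HCFC1* was lower in 6 of 6 comparisons, at log2 ratios from -0.24 to -1.10, with means of -0.51 ± 0.24 after knockdown and -0.67 ± 0.37 with palbociclib (SD, n = 3 lines). It was not called in either (limma adjusted p = 0.134 and 0.111), but it was called in both when genes with a mean level under 10 were left out. That setting called 1548 of 10547 genes after knockdown and 3107 of 10522 with palbociclib. *HCFC1* was also called in both with a prior variance that follows the level, which called 1555 of 13877 and 3154 of 13788 genes. On a median-centred scale it was called with palbociclib alone, where 2365 of 13788 genes were. *HCFC1* was not called with a pseudocount of 1 or when any line was left out.

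*RENBP* (chrX:153935269-153944643) was the gene of the set with the largest upward difference. Its level was 163 with the scrambled and 218 with the *CCND3* shRNA in NALM-6, 159 and 489 in RS4;11, and 250.1 and 434 in BV-173. Every knockdown level was above its control, by 1.34-fold, 3.06-fold and 1.73-fold, and 13.4%, 0.809% and 1.22% of all genes had a higher ratio. The mean log2 ratio was 0.94 ± 0.61 (SD, n = 3 lines). With DMSO and palbociclib the *RENBP* level was 215 and 229 in NALM-6, 170 and 458 in RS4;11, and 259 and 402 in BV-173. The order of the lines was the same under both treatments, with log2 ratios of 0.09 in NALM-6, 0.63 in BV-173 and 1.43 in RS4;11 for palbociclib, and a mean of 0.72 ± 0.68 (SD, n = 3 lines). Here 48.7%, 12.2% and 3.20% of all genes had a higher ratio in NALM-6, BV-173 and RS4;11. The level of *RENBP* in NALM-6 with scrambled shRNA was 0.754 times that with DMSO, a gap about as large as the knockdown difference in that line. *RENBP* lies close to other genes on the X chromosome. *NAA10*, a protein acetyltransferase gene, is 232 bases away and *HCFC1* 2914 bases away. Mean log2 ratios of *NAA10* were 0.36 ± 0.23 and 0.50 ± 0.38 (SD, n = 3 lines, limma adjusted p = 0.219 and 0.185), while those of *HCFC1* were below 0, as given above. The sources used here do not say whether reads were counted by strand, so reads of overlapping transcripts could not be told apart.

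The other salvage genes did not pass the test. *NAGK* levels were 440.5 and 398 in NALM-6, 279 and 340.02 in RS4;11, and 170 and 180 in BV-173 with the scrambled and the *CCND3* shRNA, with a mean log2 ratio of 0.07 ± 0.21 (SD, n = 3 lines, limma adjusted p = 0.803). With palbociclib the *NAGK* level was higher in 3 of 3 lines, by 1.10-fold, 1.41-fold and 1.15-fold, with a mean of 0.28 ± 0.19 (SD, n = 3 lines, limma adjusted p = 0.297). The gaps between the scrambled and DMSO levels of *NAGK*, at ratios of 1.35, 1.10 and 0.758, were of similar size. *AMDHD2* varied least after knockdown, where its levels were 352 and 388 in NALM-6, 212 and 240.3 in RS4;11, and 387 and 419 in BV-173. Its log2 ratios of 0.14, 0.18 and 0.11 gave a mean of 0.14 ± 0.03 (SD, n = 3 lines, limma adjusted p = 0.528, 95% interval -0.14 to 0.43). With palbociclib *AMDHD2* was lower in RS4;11 alone (272 and 206, log2 ratio -0.40), against 0.06 in NALM-6 and 0.02 in BV-173.

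**Figure D2:**
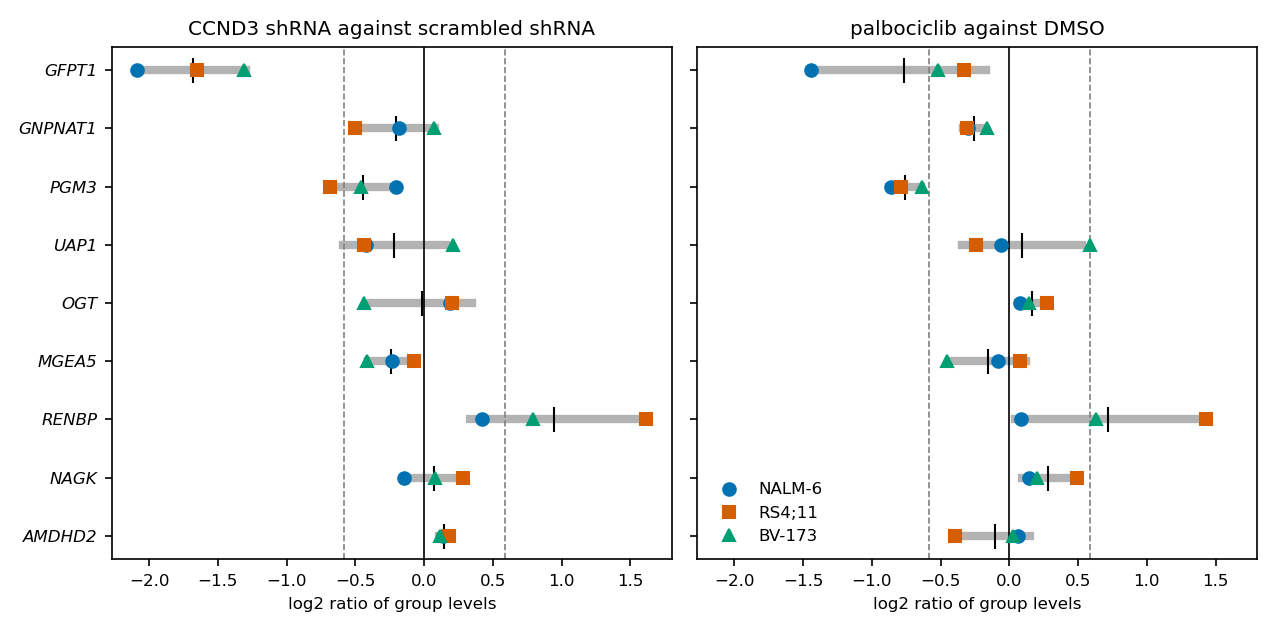
Log2 ratios of treated over control level for *CCND3* knockdown (left) and palbociclib (right), with 1 point per line, a black tick at the mean and a grey bar of 1 SD on either side (n = 3 lines). Dashed lines mark 1.5-fold. *GFPT1* lies left of the dashed line in all 3 lines after knockdown and *PGM3* in all 3 lines with palbociclib.

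A gene was counted as past 1.5-fold within a line when its 2 group levels differed by at least that factor. After knockdown this held for 1 of the 9 genes in NALM-6 (*GFPT1* lower), 3 in RS4;11 (*GFPT1* and *PGM3* lower, *RENBP* higher) and 2 in BV-173 (*GFPT1* lower, *RENBP* higher). Among all genes the share was 16.3%, 19.4% and 8.09%. With palbociclib it held for 2 genes in NALM-6 (*GFPT1* and *PGM3* lower), 2 in RS4;11 and 2 in BV-173 (in both *PGM3* lower and *RENBP* higher), beside 36.3%, 31.7% and 25.5% of all genes. The choice of *GFPT1* and *RENBP* used these contrasts, so nothing is read from the counts. In all, 12 of 54 pairs of gene and comparison were past 1.5-fold, and all 12 belonged to *GFPT1*, *RENBP* and *PGM3*. These genes were grouped after the values were seen, so 0 of 36 pairs among the other 6 genes follows from the grouping. Closest to the limit from below were *UAP1* in BV-173 with palbociclib at 1.4997-fold (log2 ratio 0.58), *GFPT1* in the same comparison (-0.52) and *GNPNAT1* in RS4;11 after knockdown (-0.50). Just past it were *RENBP* and *PGM3* in BV-173 with palbociclib (0.63 and -0.63) and *PGM3* in RS4;11 after knockdown (-0.69).

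Over the 3 lines, 0 of the 7 genes other than *GFPT1* and *RENBP* were called after knockdown (limma, adjusted p under 0.1), where 5.51% of 13877 genes were, 1.79% higher and 3.72% lower. At an unadjusted p under 0.05 (limma) there was 1, *PGM3*, beside 2936 of 13877 genes. With palbociclib 1 of the 7, *PGM3*, was called, beside 16.5% of 13788 genes, 7.53% higher and 9.01% lower. That share is near the background, so the count by itself is no result about the pathway. The 2 treatments were compared by the difference of the 2 log2 ratios within a line, knockdown less palbociclib. This difference shows unequal ratios and not the absence of a response to the drug. It also holds any effect of the transduction and of the day, which differed between the treatments. For *GFPT1* it was -1.33 in RS4;11, -0.64 in NALM-6 and -0.79 in BV-173, so that the knockdown ratio was lower in 3 of 3 lines, with a mean difference of -0.92 ± 0.36 (SD, n = 3 lines). For *RENBP* it was 0.18, 0.34 and 0.16 in the same order, a mean of 0.23 ± 0.10 (SD, n = 3 lines), and the treatments thus lay closer together than for *GFPT1*. For *PGM3* the difference had the other sign, at 0.10, 0.66 and 0.18, with a mean of 0.31 ± 0.30 (SD, n = 3 lines), a 95% interval of -0.14 to 0.76 and a limma adjusted p of 0.358. For *UAP1* it was -0.19, -0.36 and -0.37, with a mean of -0.31 ± 0.10 (SD, n = 3 lines), an interval of -0.66 to 0.04 and a limma adjusted p of 0.277. None of the 7 genes was called for the difference, with 0 at an unadjusted p under 0.05 (limma) beside 2769 of 13307 genes. At the adjusted threshold 0.526% of all genes were called, 1 of them *CCND3* itself with a difference of -1.65 ± 0.35 (SD, n = 3 lines, limma adjusted p = 0.0989). All of these calls, that of *CCND3* included, were lost when any line was left out.

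Levels of different genes were compared per kilobase of the transcript length given in each table. *OGT* was the highest of the 9 genes per kilobase and *PGM3* the lowest in 12 of 12 groups, at 1207 and 77.5 in NALM-6 with scrambled shRNA. With scrambled shRNA *GFPT1* ranked 4, 4 and 6 of 9 for NALM-6, RS4;11 and BV-173, and with the *CCND3* shRNA it ranked 8 in each line, above *PGM3* alone. With palbociclib it went from rank 4, 4 and 7 to rank 8, 5 and 8. *RENBP* moved the other way, from rank 8, 8 and 7 to 7, 3 and 5 after knockdown and from 8, 8 and 6 to 7, 4 and 5 with palbociclib. In RS4;11 after knockdown, *RENBP* had rank 3, after *OGT* and *MGEA5*. Without a spread between replicates it cannot be said which neighbours in these orders differ.

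The balance of *GFPT1* against *RENBP* per kilobase brings both differences together. With scrambled shRNA there was 3.34, 3.27 and 1.01 times as much *GFPT1* as *RENBP* for NALM-6, RS4;11 and BV-173, and with the *CCND3* shRNA the ratio was 0.587, 0.340 and 0.236. With DMSO it was 2.65, 2.94 and 0.965, and with palbociclib 0.918, 0.869 and 0.434. The ratio was lower in 6 of 6 comparisons and every treated value was below every control value. *GFPT1* over *AMDHD2*, the gene of the deacetylase that returns GlcNAc-6-phosphate, was lower in 5 of 6 comparisons, the exception being RS4;11 with palbociclib (2.13 with DMSO and 2.24 with the drug). *OGT* over *MGEA5* was higher in 5 of 6, the exception being BV-173 after knockdown (1.79 and 1.76). *RENBP* over *NAGK* was also higher in 5 of 6, the exception being NALM-6 with palbociclib (0.675 and 0.650). These ratios hold *GFPT1* or *RENBP*, which were chosen on the same comparisons, in all cases but *OGT* over *MGEA5*.

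**Figure D3:**
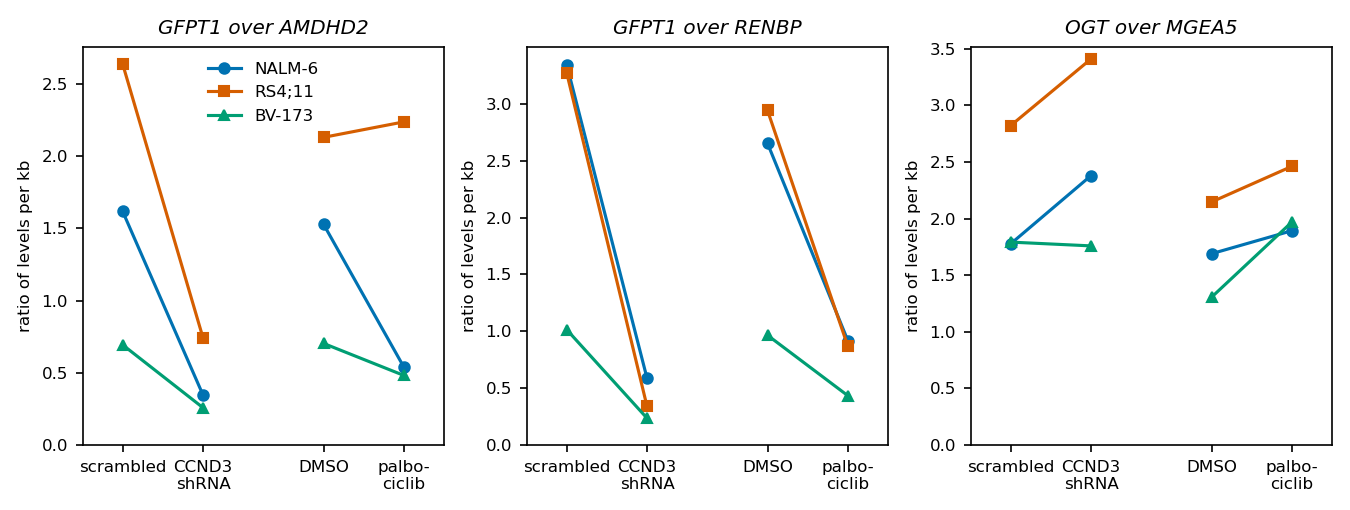
Ratios of levels per kilobase for *GFPT1* over *AMDHD2*, *GFPT1* over *RENBP* and *OGT* over *MGEA5* in the 12 groups, on linear axes from 0, with lines joining a control to its treatment in the same cell line. *GFPT1* over *RENBP* is between 0.965 and 3.34 in the controls and between 0.236 and 0.918 after treatment.

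Some paralogs and neighbouring steps differed more between BV-173 and the other lines than with treatment. This holds as far as tables normalised separately can be set side by side. *GFPT2*, the second amidotransferase gene, was listed in BV-173 alone, at levels of 0.159 to 0.210, far under those of *GFPT1*. *GNPDA1*, whose enzyme returns glucosamine-6-phosphate to fructose-6-phosphate, had levels of 145 to 213 in NALM-6 and 555 to 1063 in RS4;11 but 0.159 to 1.21 in BV-173. *UAP1L1*, a paralog of *UAP1*, had levels of 176 to 375, 651 to 1316 and 7.06 to 34.3 in the same order. It also differed with treatment, at log2 ratios from -0.95 to 2.08 with palbociclib. *GNE*, which makes N-acetylmannosamine from UDP-GlcNAc and starts sialic acid synthesis, had levels of 1017 to 1272, 872 to 1185 and 154 to 231. BV-173 was thus the line with the lowest levels of all 3 genes, and it was the line with the lowest *GFPT1* and the highest *RENBP* among the controls.

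Sialic acid lies downstream of GNE and N-acetylmannosamine. Of 18 genes of its synthesis, transfer and removal, 1 rose and 0 fell after knockdown (limma, adjusted p under 0.1), beside 5.51% of all genes called, with a median log2 ratio of -0.10 beside 0.00 for all genes. The gene that rose was *ST6GAL1*, the sialyltransferase that caps N-glycans of B cells, by 1.55 ± 0.65 on the log2 scale (SD, n = 3 lines, limma adjusted p = 0.0773). Its level went from 2479 to 6816 in NALM-6, from 1768 to 8359 in RS4;11 and from 32.4 to 62.1 in BV-173. *ST6GAL1* was higher in 6 of 6 comparisons. Its mean was 1.07 ± 0.71 with palbociclib (limma adjusted p = 0.104) and the difference between the treatments 0.47 ± 0.08 (SD, n = 3 lines, limma adjusted p = 0.171), neither called. With palbociclib 17 of these genes could be tested, and *NEU1*, the lysosomal sialidase, rose by 1.36 ± 0.56 while *NANP*, the phosphatase that releases free sialic acid, fell by 0.75 (-0.75 ± 0.22, SD, n = 3 lines, limma adjusted p = 0.0550 and 0.0666). These 2 calls stand beside 16.5% of all genes, and the median was 0.01 beside 0.04. *GNE* was lower in 6 of 6 comparisons, at -0.02 to -0.53, without a call (limma adjusted p = 0.537 and 0.159). *NANS*, *CMAS* and *NPL*, of the synthesis, activation and breakdown of sialic acid, had mean log2 ratios of 0.10, 0.14 and -0.62 after knockdown and -0.16, -0.28 and -0.22 with palbociclib, none called by limma.

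Of 30 genes around the use of UDP-GlcNAc, 0 rose and 1 fell after knockdown, and 3 rose and 2 fell with palbociclib (limma, adjusted p under 0.1). The shares of all genes called were 5.51% and 16.5%, so 5 of 30 with palbociclib is close to the background. The gene that fell with knockdown, *C1GALT1*, by 0.79 (-0.79 ± 0.09, SD, n = 3 lines, limma adjusted p = 0.0773), builds O-glycans from UDP-galactose rather than from UDP-GlcNAc. With palbociclib *GNPTAB* and *GNPTG*, subunits of the enzyme that tags lysosomal proteins with GlcNAc-phosphate, rose by 0.80 ± 0.26 and 0.79 ± 0.14, and *ALG1*, an early mannosyltransferase of N-glycan assembly, rose by 0.68 ± 0.20. *PIGA*, of the first step of GPI anchors, fell by 0.64 (-0.64 ± 0.23, SD, n = 3 lines). *GCNT2*, a transferase that branches glycans with GlcNAc, fell by 0.58 (-0.58 ± 0.15, SD, n = 3 lines) at levels of 0.622 to 86.3. *DPAGT1*, which starts the N-glycan precursor with UDP-GlcNAc, had mean log2 ratios of -0.14 and -0.48 and was not called (limma adjusted p = 0.550 and 0.131). The medians of the list were -0.09 and 0.05 beside 0.00 and 0.04 for all genes.

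On the supply side, 17 genes of fructose-6-phosphate and glutamine handling gave 0 calls after knockdown (limma), beside 5.51% of all genes. At an unadjusted p under 0.05 (limma) there were 4 of the 17, beside 2936 of 13877 genes. The median log2 ratio of the 17 was 0.10 beside 0.00 for all genes. With palbociclib 16 could be tested and 2 fell. *SLC1A5*, the main glutamine importer, fell by 1.27 (-1.27 ± 0.24, limma adjusted p = 0.0411), from 7676 to 3725 in NALM-6, from 9907 to 3429 in RS4;11 and from 10464 to 4399 in BV-173. *SLC38A2*, a further glutamine transporter, fell by 0.71 (-0.71 ± 0.27, SD, n = 3 lines). *GNPDA2*, a paralog of *GNPDA1*, had mean ratios of -0.11 and 0.45 without a call. Among 10 lysosomal enzymes that release hexosamines and other sugars from glycans, 0 were called after knockdown (limma), beside 5.51% of all genes. At an unadjusted p under 0.05 (limma) there were 4 of the 10, beside the same 2936 of 13877 genes. Of the 10 mean ratios 9 were above 0, with a median of 0.27 beside 0.00. With palbociclib *FUCA1* (0.91 ± 0.09) and *GALNS* (0.89 ± 0.42, SD, n = 3 lines), for a fucosidase and a sulfatase, rose, and the median was 0.35 beside 0.04. These counts stand beside the 16.5% of all genes that were called with the drug.

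The unfolded protein response was followed through 19 genes, the factors *XBP1* and *ATF6* with *ERN1* and their targets. After knockdown 0 of 19 were called (limma), beside 5.51% of all genes, with 12 mean ratios below 0 and a median of -0.13 beside 0.00. At an unadjusted p under 0.05 (limma) there was 1 of the 19, beside 2936 of 13877 genes. With palbociclib *EDEM1*, which sends misfolded glycoproteins to degradation, fell by 1.28 (-1.28 ± 0.52) and *HERPUD1*, of the same degradation route, fell by 0.79 (-0.79 ± 0.07, SD, n = 3 lines, limma adjusted p = 0.0553 and 0.0530), with a median of -0.01 beside 0.04. These 2 of 19 stand beside 16.5% of all genes. Genes next to *GFPT1* on chromosome 2 gave 0 calls under either treatment (limma). At an unadjusted p under 0.05 (limma) there were 0 and 1, beside 2936 of 13877 and 4071 of 13788 genes. *NFU1*, the nearest at 8523 bases, had mean ratios of -0.02 ± 0.10 and -0.29 ± 0.49 (SD, n = 3 lines). Of 6 genes around *RENBP*, 0 were called after knockdown (limma), with 3 at an unadjusted p under 0.05 beside 2936 of 13877 genes. Among these 6, *ARHGAP4* rose with palbociclib (0.73 ± 0.24, SD, n = 3 lines, limma adjusted p = 0.0730). For the difference between the treatments, 0 genes of any of these lists were called by limma. At an unadjusted p under 0.05 (limma) there were 0 to 5 per list, beside 2769 of 13307 genes. The calls of these lists depend on the lines: 0 genes at all were called for knockdown without NALM-6 or without RS4;11, and 0 for palbociclib without NALM-6 (limma, with 2056, 1549 and 3010 genes at an unadjusted p under 0.05).

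The genes whose 6 log2 ratios lay closest to those of *GFPT1* were sought among 8692 genes with a mean level of at least 100 in every comparison, by the root mean square difference over the 6 comparisons. They were *KLHL23* (0.450), *PRDX3* (0.452), *CBFB* (0.504), *CCND3* itself (0.535) and *NUCB2* (0.606). PRDX3 is a mitochondrial peroxidase and CBFB the partner subunit of the RUNX factors. *PRDX3* had knockdown ratios of -1.76, -1.46 and -0.80 and palbociclib ratios of -0.73, -0.46 and 0.02, lower after knockdown than with the drug in each line, as for *GFPT1*. *KLHL23*, in contrast, was about as low with palbociclib (mean -1.24) as after knockdown (mean -1.30). For *RENBP* the nearest were *CTSD* (0.220), *MYLIP* (0.292), *MPG* (0.350), *SYS1* (0.351) and *ABHD4* (0.351). *CTSD*, which encodes the lysosomal protease cathepsin D, had ratios of 0.33, 1.74 and 0.53 after knockdown and 0.37, 1.70 and 0.84 with palbociclib for NALM-6, RS4;11 and BV-173. All 5 had their highest ratio in RS4;11 under both treatments, as *RENBP* did. The 6 ratios come from 3 lines and the genes were ranked for likeness, so no test is given.

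**Figure D4:**
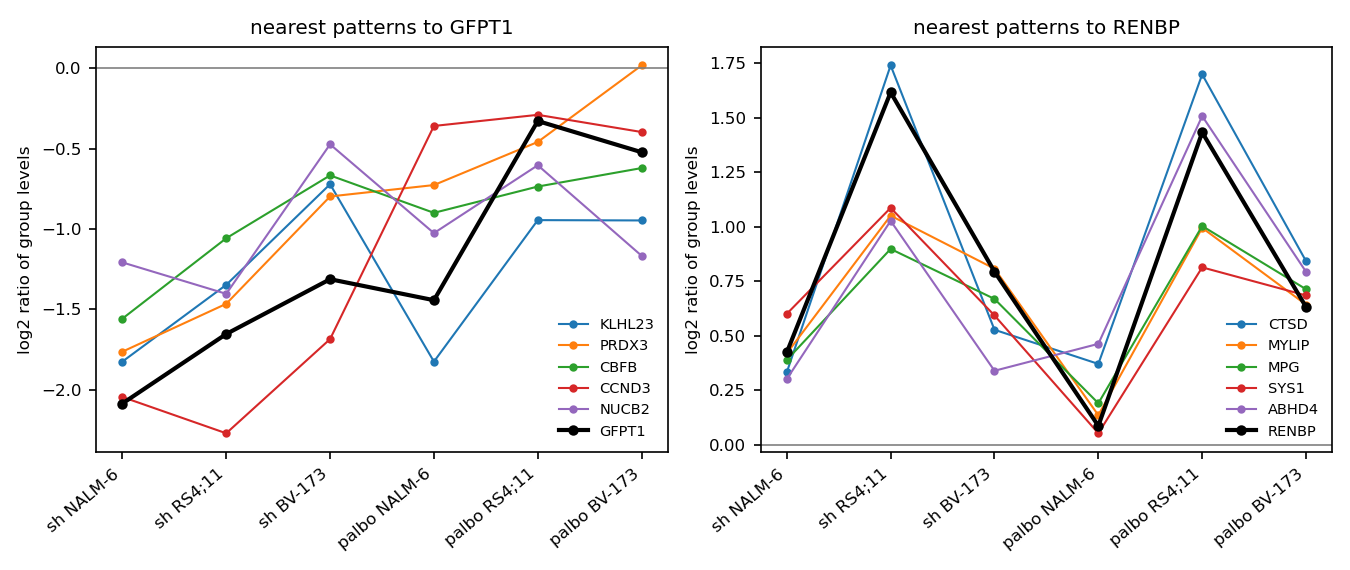
Log2 ratios of *GFPT1* (left, black) and *RENBP* (right, black) with the 5 genes nearest to each in the 6 comparisons (sh, *CCND3* shRNA; palbo, palbociclib). The lines join the comparisons of 1 gene and carry no order in time. The *GFPT1* curve runs from -2.09 to -0.33 and the *RENBP* curve from 0.09 to 1.62.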

How the data were processed

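RNA-seq of 34 samples was analysed in the 12 groups of the labels. After read filtering (SOAPnuke), the authors aligned to hg38 by Bowtie2, quantified genes by RSEM and ran DESeq2 on each pair of groups. Versions and the annotation are not given in the sources used here. The authors' deposited tables hold, per gene, a signal (1 normalised level for each of the 2 groups, replicates pooled), a transcript length, and their own log2 fold changes, p-values and adjusted p-values, which were not used. The 10% of genes with the lowest levels had log2 ratios with an SD of 0.09 to 0.31, against 0.34 to 0.96 for genes just above the median level, so ratios of low genes are narrowed in these tables.

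The log2 ratio of the group levels was taken in each line, with no pseudocount and no filter. limma 3.58.1 (R 4.3.3) tested the mean of the 3 lines for every gene listed in the tables concerned, with Benjamini-Hochberg adjustment and a call at an adjusted p under 0.1. Since the lines are the replicates, p-values measure the spread between lines. Summaries and figures used Python 3.11.15 with matplotlib 3.10.9, scipy 1.17.1, pandas 2.3.3 and numpy 2.4.6. The fit was tested on simulated data. The 9 genes and all lists were chosen with earlier results of these data known. Named genes are the 9, *CCND3*, called genes of the lists (at most 4 per list and treatment by size, with *GCNT2* added for its low level), neighbouring steps, and the 5 genes nearest to *GFPT1* and to *RENBP*. *HCFC1*, *NAA10* and *NFU1* are named as the genes next to *RENBP* and *GFPT1*. Alternatives were a median-centred scale, a mean level of at least 10, a pseudocount of 1, a prior variance that follows the level, leaving out each line, an adjusted p under 0.05 and fold limits of 2 and of a 25% increase or the matching fall. Positions and start regions are those of RefSeq (GRCh38.p14), matched by NCBI gene identifier for all 9 genes. Some genes of the lists are not reported here.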

Additional observations from a re-analysis of the deposited data

Results flagged for a closer look

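Lines lay on opposite sides of 0 under the same treatment and at least 1.5-fold apart in 3 cases, and none of these differences was tested, since each line has 1 value per group. The log2 ratio of *UAP1* after *CCND3* knockdown was 0.21 in BV-173 and -0.44 in RS4;11, a difference of 0.65. With palbociclib it was 0.58 in BV-173 and -0.25 in RS4;11, a difference of 0.83. The log2 ratio of *OGT* after knockdown was 0.20 in RS4;11 and -0.44 in BV-173, a difference of 0.64.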

How the results depend on the processing

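Knockdown called 764 genes over the 3 lines. This became 1548 with a mean level of at least 10, 1555 with a prior variance that follows the level, 0 with a pseudocount of 1 (2966 at an unadjusted p under 0.05, limma), 0 at an adjusted p under 0.05 (2936 at an unadjusted p under 0.05), and 0 to 787 when a line was left out (787 without BV-173). Palbociclib called 2280 genes, 660 at an adjusted p under 0.05, and 0 to 852 when a line was left out. The difference of the treatments called 70 genes, and 139 on a median-centred scale, 1144 with a mean level of at least 10, 311 with a pseudocount of 1, 1479 with the level-dependent prior, 0 at an adjusted p under 0.05 and 0 to 0 when a line was left out (limma, 1644 to 2148 at an unadjusted p under 0.05). The counts of calls over all genes, and with them the list calls, therefore depend on the setting. *PGM3* with palbociclib kept its call under 4 alternatives at the threshold of 0.1 (limma adjusted p from 0.0265 to 0.0573, the reported value included), lost it whichever line was left out, and was not called at an adjusted p under 0.05. No other of the 7 tested genes was called at 0.1 under any alternative that was run. Of 54 pairs of gene and comparison, 12 were past 1.5-fold, 6 past 2-fold and 25 past an increase of 25% or the matching fall. Among all genes the share was lowest in BV-173 after knockdown and highest in NALM-6 with palbociclib at each limit. It ran from 8.09% to 36.3% past 1.5-fold, from 0.935% to 18.3% past 2-fold and from 29.1% to 58.2% past the 25% limit. The cause of the shifts between settings was not tested. No paired analysis was possible because the tables hold 1 value per group and carry no replicate numbers. The group levels carry neither depth nor the spread between replicates, and the authors' p-values were not used, so no precision is given for a single line's ratio.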

Other observations

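*NAGLU*, the lysosomal enzyme that removes terminal GlcNAc from heparan sulfate, had a mean log2 ratio of 0.66 ± 0.31 after *CCND3* knockdown and 0.11 ± 0.17 with palbociclib (SD, n = 3 lines, limma adjusted p = 0.104 and 0.665). *HEXA*, of the β-hexosaminidase that frees GlcNAc and GalNAc, had 0.44 ± 0.09 and 0.44 ± 0.19 (SD, n = 3 lines, limma adjusted p = 0.132 and 0.153), higher in 6 of 6 comparisons. Both genes were picked after their values were seen, and neither was called in the fit reported here. After knockdown both were called with a mean level of at least 10 and with a prior variance that follows the level. With palbociclib *HEXA* was called under these settings and *NAGLU* was not. The first of them called 1548 of 10547 genes after knockdown and 3107 of 10522 with palbociclib. Neither gene was called with a pseudocount of 1 or when any line was left out. *CD79A* rose with palbociclib by 1.13 ± 0.61 and *IGLL1* fell by 0.63 (-0.63 ± 0.11, SD, n = 3 lines, limma adjusted p = 0.0762 and 0.0756), and their part in the values of the hexosamine genes was not tested.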
